A study of Danio rerio with 8 samples.

Results

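The claudin and keratin genes of the zebrafish are described here across cells sorted from the adult brain. A gene belonged to the set if its Ensembl name began with cldn, or with krt followed by a digit, without regard to case, and if its counts over the 8 libraries summed to at least 10. The endothelial claudin-5 genes and the myelin claudin cldnk were left out by name. The rule took 49 of 31388 genes, 32 claudins and 17 keratins, and it used no difference between groups. Of 58 names that fit the pattern, 9 had fewer counts. The members nearest the minimum were CLDN10 on chromosome 6 with 15 summed counts and krt17 with 10, and just under it lay cldn10d with 8 and krt99 with 6. CLDND1 and cldnd1a encode claudin domain proteins, which are relatives of the claudins, and KRT222 encodes a keratin-like protein.

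RNA sequencing counted reads per gene in 4 groups of 2 libraries each. The fish were 6 months old (6 mpf) and carried the transgene Tg(her4.1:EGFP), in which the her4.1 promoter drives EGFP, a green fluorescent protein (GFP), in radial glia, which line the ventricles of the fish brain and act there as stem cells. The fish received an injection of the cytokine interleukin-4 (IL4), as peptide, or of phosphate-buffered saline (PBS), and at 24 hours post injection (hpi) cells were sorted by fluorescence. The groups are therefore IL4 GFP-positive, PBS GFP-positive, IL4 GFP-negative and PBS GFP-negative. GFP-negative cells are all other sorted cells, and the labels do not say whether a library holds 1 brain or several, so p-values may measure technical spread.

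Claudins are membrane proteins with 4 transmembrane passes that meet across the gap between cells and form the strands of tight junctions, where some of them seal the gap and others form pores for ions. Keratins are the intermediate filaments of epithelia, and each filament needs an acidic type I chain and a basic type II chain. Krt8 (type II) with Krt18 (type I) is the pair of simple epithelia, whereas in mammals Krt5 (type II) with type I partners marks the basal layer of the epidermis. In mammalian brain, claudins are best known from the vessel wall, from myelin and from the choroid plexus.

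Totals ran from 19242851 to 26582271 counts per library. The sort went with the labels, since 13 of 14 genes matched to radial glia were higher in GFP-positive cells after IL4 as well as after PBS. Levels are CPM, the usual counts scaled to a common library size, here set by the trimmed mean of M-values (TMM), and levels of different genes are compared as CPM per kilobase of gene length. A log2 fold change is followed by its standard error (SE) from edgeR's quasi-likelihood fit of all 8 libraries, with 2 libraries against 2. With so few libraries, 2 groups often fail to overlap without any difference, so remarks on overlap are description only. The share of all genes without overlap was not counted. A gene passed at a Benjamini-Hochberg adjusted p under 0.05 over 20508 genes, and 38 of the 49 members, 26 claudins and 12 keratins, had enough counts to be tested.

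Keratin RNA was carried by a few genes. On CPM per kilobase, averaged over the 8 libraries, krt8 came first with a level of 87.6, followed by krt18b with 84.7, krt18a.1 with 53.6, krt5 with 49.6 and krt91 with 21.8. Among the claudins the order of this level was cldnb with 55.4, CLDN19 with 30.0, cldn7a with 22.1, CLDN12 with 19.6 and cldnd1a with 12.7. Of the other claudins, cldni followed with a level of 10.4, and all further ones lay below that. krt8 lies on chromosome 23 of GRCz10 at 10314656 to 10319318 and krt5 at 10238226 to 10242488 of the same chromosome, while cldnb lies on chromosome 21 at 25729129 to 25730235 and CLDN19 on chromosome 11 at 38737638 to 38782921.

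The summed level of the 17 keratins was 465.8 and 441 CPM in the IL4 GFP-positive libraries and 519 and 507 CPM in the PBS GFP-positive libraries, and it was 809 and 787 CPM in the IL4 GFP-negative libraries, against 1110 and 1115 CPM in the PBS GFP-negative libraries. GFP-negative cells thus held more keratin RNA than GFP-positive cells after either injection, and the 4 groups did not overlap. In bulk samples such as these, fewer cells of a type and less RNA per cell cannot be told apart. The composition differed as well. krt8 and krt18a.1 together made up 87.2% and 87.5% of keratin CPM in the IL4 GFP-positive libraries and 80.5% and 81.5% in the PBS GFP-positive libraries. Their share was 18.2% and 18.8% in the IL4 GFP-negative libraries, against 40.1% and 41.6% in the PBS GFP-negative libraries. krt5, krt91 and krt97 together took 57.9% and 57.1% of keratin CPM in the IL4 GFP-negative libraries, against 13.5% and 15.3% in the PBS GFP-negative libraries. In GFP-negative cells after IL4 these 3 genes were therefore the larger part of the keratin CPM, and after PBS krt8, krt18a.1 and krt18b were.

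**Figure D1:**
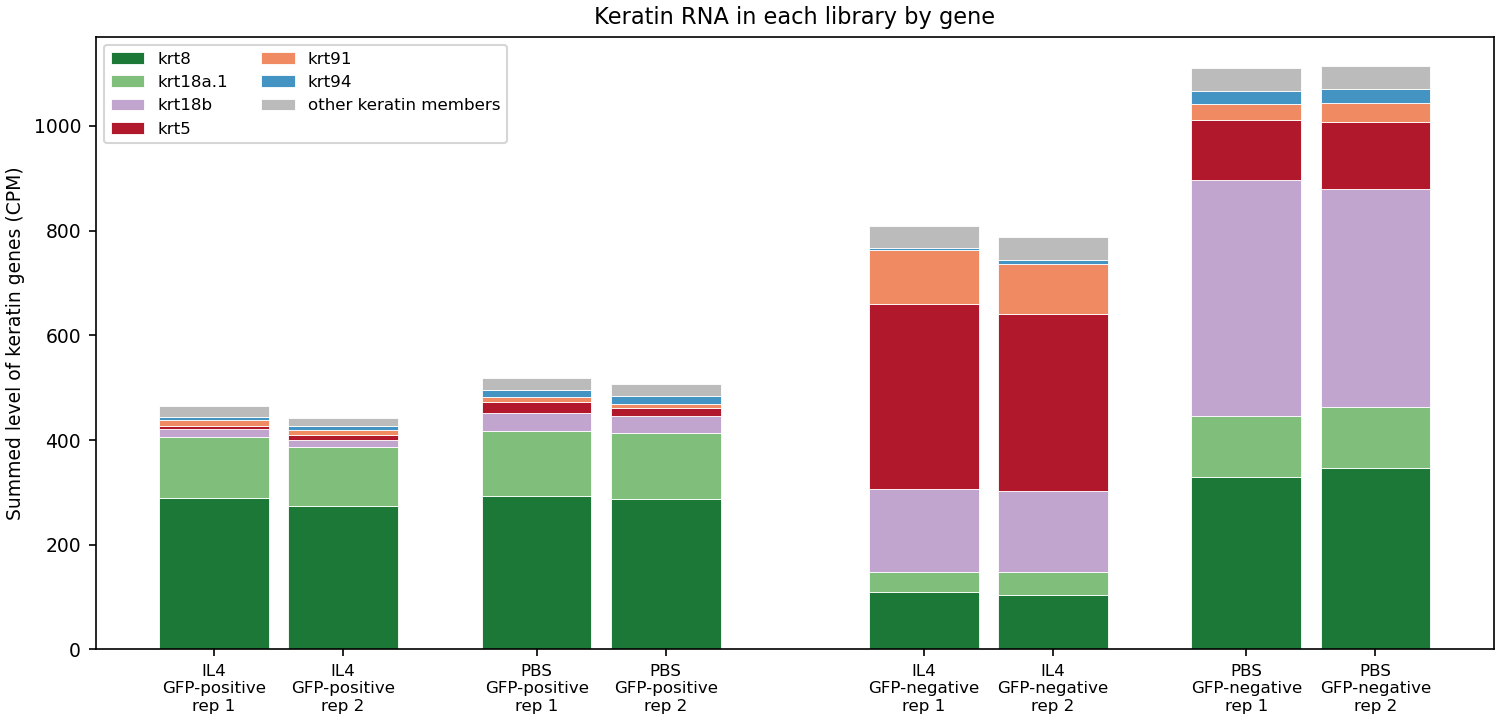
Stacked bars give the summed level of the keratin members in CPM for each of the 8 libraries, split by gene. The 2 IL4 GFP-negative libraries reach 809 and 787 CPM and are filled mostly by krt5 and krt91, whereas krt8, krt18a.1 and krt18b fill most of the 2 PBS GFP-negative bars.

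Summed claudin levels were 297 and 309.7 CPM in the IL4 GFP-positive libraries and 334 and 322 CPM in the PBS GFP-positive libraries. In GFP-negative cells they were 622 and 639 CPM after IL4, against 564 and 568 CPM after PBS. CLDN19, a gene of 5518 bases, held 321 and 328 CPM of this after IL4 and 205 and 206 CPM after PBS. It gained more CPM than the sum did. Of the 26 tested claudins in this fraction 4 rose and 9 fell after IL4, against 9.04% and 15.4% of all genes tested. Claudin RNA was thus also more abundant in the GFP-negative fraction, with no overlap between fractions.

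Between the sorted fractions, most of the members that passed were lower in GFP-positive than in GFP-negative cells. After IL4, 6 of 38 tested members were higher in GFP-positive cells, against 32.4% of all genes tested, and 19 were lower, against 34.3% (66.6% of all genes in either direction). After PBS, 5 members were higher, against 32.6% of all genes, and 23 were lower, against 39.1% (71.7% in either direction). The median log2 fold change of the tested members was -1.53 after IL4 and -1.57 after PBS, beside -0.05 and -0.14 over all genes. Counted over both injections, 11 claudins and 6 keratins were lower after each of them, and 4 claudins and no keratin were higher after each. Of all genes tested, 30.3% were lower after both and 26.8% higher after both.

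The claudins that followed the GFP-positive fraction after both injections were cldn7a, CLDN12, cldn29 and CLDN11 on chromosome 24. The level of cldn7a, on chromosome 7 at 22345055 to 22355696, was 71.9 and 82.9 CPM in IL4 GFP-positive libraries and 97.0 and 88.3 CPM in PBS GFP-positive libraries. In GFP-negative libraries it was 2.20 and 3.38 CPM after IL4 and 5.57 and 4.98 CPM after PBS. Its 4 GFP-positive values thus lay far above all GFP-negative ones, and the log2 fold change was 4.79 ± 0.15 after IL4 and 4.13 ± 0.13 after PBS (adjusted p = 1.68e-16 and 3.26e-16). Its paralogue cldn7b, on chromosome 10, ran the other way, with 1.15 and 0.552 CPM in IL4 GFP-positive libraries and 0.183 and 0.836 CPM in PBS GFP-positive libraries. Its GFP-negative levels were 19.1 and 22.9 CPM after IL4 and 29.8 and 27.4 CPM after PBS. Claudin-7 is a claudin of epithelia in mammals, and its 2 zebrafish copies were on opposite sides of the sort, cldn7b being lower in GFP-positive cells by a log2 fold change of -4.62 ± 0.30 after IL4 and -5.85 ± 0.31 after PBS. These cldn7b values rest on 4 to 21 counts per GFP-positive library, and without PBS GFP-positive replicate 1 or 2 the value after PBS was -5.01 or -7.17, and without IL4 GFP-positive replicate 1 the value after IL4 was -5.22.

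CLDN12, whose product lacks the PDZ-binding tail of most claudins, had 97.6 and 99.0 CPM in IL4 GFP-positive libraries and 42.2 and 39.6 CPM in IL4 GFP-negative libraries. After PBS it had 103 and 107 CPM in GFP-positive and 40.5 and 36.3 CPM in GFP-negative libraries. It was higher in GFP-positive cells by 1.26 ± 0.08 after IL4 and 1.45 ± 0.08 after PBS on the log2 scale, and it did not pass for IL4 in either fraction. cldn29, at 25736925 to 25738000 of chromosome 21, was higher by 3.08 ± 0.27 after IL4 and 1.72 ± 0.25 after PBS. CLDN11 on chromosome 24, a zebrafish copy of the claudin that forms tight junctions in mammalian myelin, was higher by 1.18 ± 0.21 after IL4 and 0.89 ± 0.21 after PBS. The call after PBS ended with plain library totals (log2 0.41, adjusted p = 0.0894). The other copy of this gene, CLDN11 on chromosome 2, was lower in GFP-positive cells by -1.72 ± 0.39 after IL4 and -1.97 ± 0.33 after PBS, and without IL4 GFP-positive replicate 2 the value after IL4 was -2.59.

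Among the claudins that followed the GFP-negative fraction, cldnb is a zebrafish gene known from epidermis and the lateral line. It had 4.70 and 5.96 CPM in IL4 GFP-positive libraries and 86.4 and 91.6 CPM in IL4 GFP-negative libraries. After PBS the GFP-positive levels were 7.54 and 8.10 CPM and the GFP-negative levels 141 and 146 CPM. The fractions did not overlap, with log2 fold changes of -4.06 ± 0.11 after IL4 and -4.20 ± 0.10 after PBS. CLDN19, a claudin of peripheral myelin and kidney in mammals, gave -2.27 ± 0.06 and -1.68 ± 0.06 in these comparisons. The other 7 claudins lower after both injections, beside CLDN11 on chromosome 2 and cldn7b, were cldna, cldni, cldne, cldn3d, CLDN2, cldn33b and cldnd1a.

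**Figure D2:**
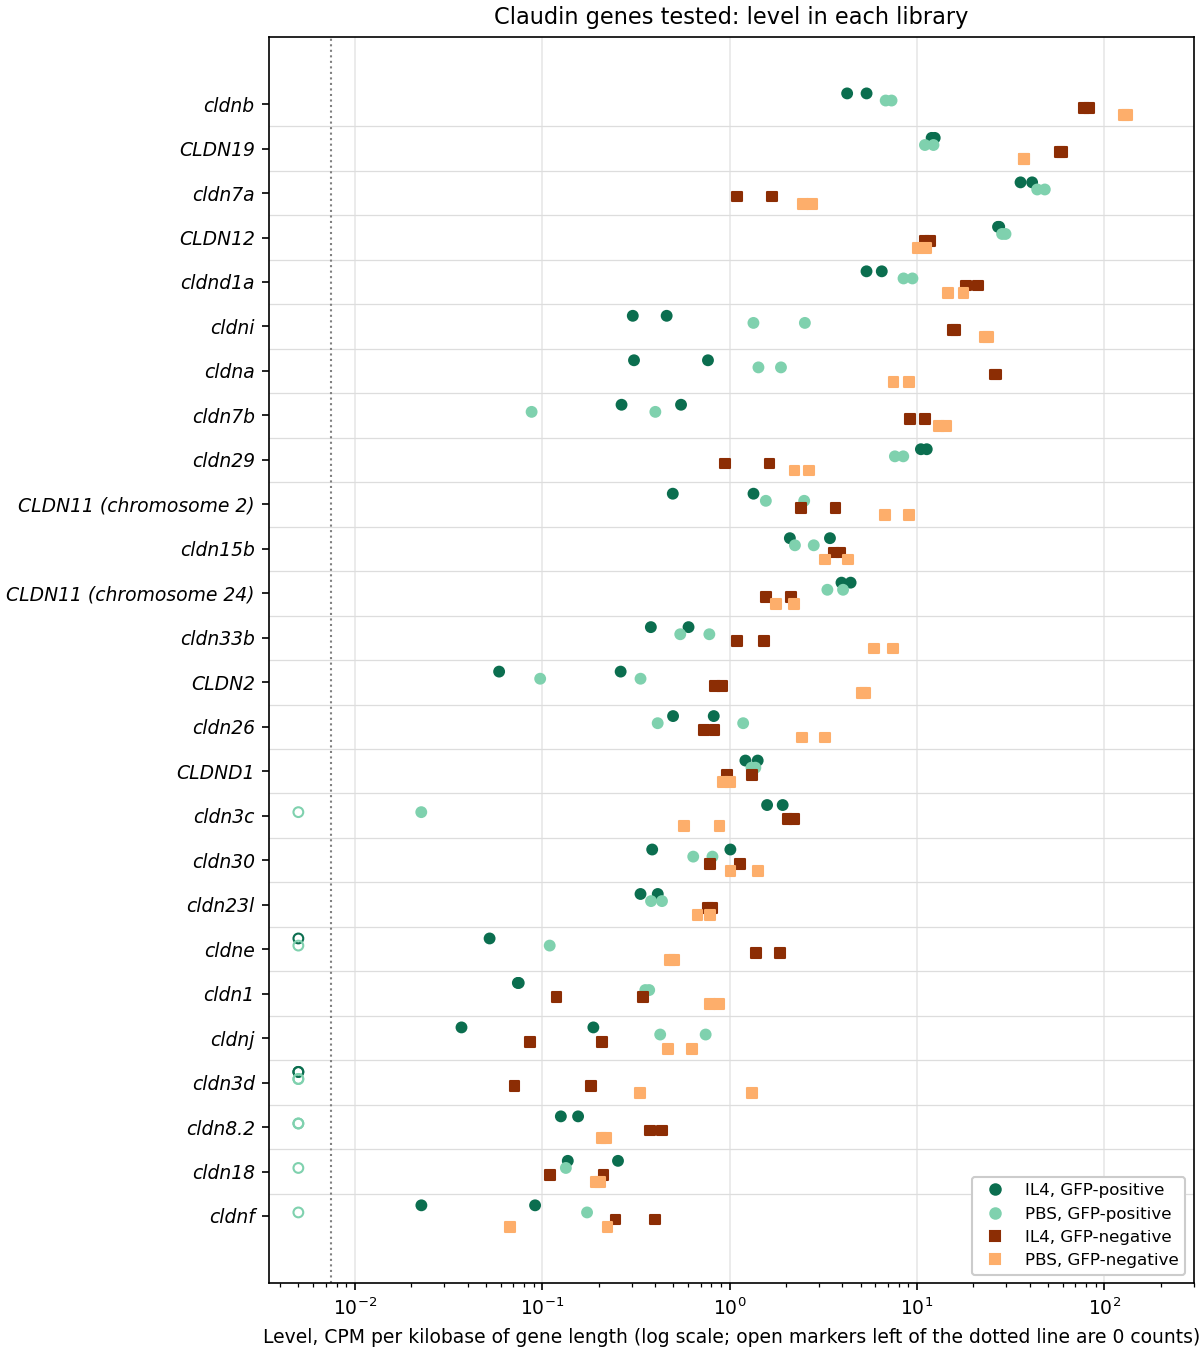
Each point is the level of a tested claudin in 1 library, in CPM per kilobase on a log axis, with IL4 in dark and PBS in light colours, circles for GFP-positive and squares for GFP-negative libraries, and open markers for 0 counts. Circles lie right of squares for cldn7a, CLDN12, cldn29 and CLDN11 on chromosome 24, and left of them for most others, such as cldnb and cldni.

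Of the 12 tested keratins, 6 were lower in GFP-positive cells after both injections, against 30.3% of all genes tested. They were krt4, krt18b, krt1-19d, krt91, krt5 and krt97, of which krt4 and krt1-19d lost the call after IL4 in DESeq2 (adjusted p = 0.0764 and 0.0826). krt18b, on chromosome 6 at 39362841 to 39367931, is a further Krt18 copy. It had 15.7 and 14.5 CPM in IL4 GFP-positive libraries and 160.0 and 155 CPM in IL4 GFP-negative libraries, and 34.5 and 33.0 CPM in PBS GFP-positive against 452 and 416 CPM in PBS GFP-negative libraries. No GFP-positive library came near a GFP-negative one, and the log2 fold change was -3.38 ± 0.07 after IL4 and -3.68 ± 0.07 after PBS. The other tested Krt18 gene, krt18a.1, was not split in this way, with 125 and 127 CPM in PBS GFP-positive libraries against 115 and 117 CPM in PBS GFP-negative libraries (log2 0.12 ± 0.07, adjusted p = 0.118). This last value turned to -0.37 with plain library totals, and it passed there (adjusted p = 6.45e-05), as it did at 0.15 with RLE factors (adjusted p = 0.0416) and at 0.20 in a fit of the 4 PBS libraries alone (adjusted p = 0.0117). Each fit that left out a single GFP-positive library, from either injection, also called krt18a.1 higher in GFP-positive cells after PBS.

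krt8, the type II partner of Krt18, gave opposite calls for the sort. It had 289.6 and 274 CPM in IL4 GFP-positive libraries against 109 and 105 CPM in IL4 GFP-negative libraries, a log2 fold change of 1.40 ± 0.05. After PBS it had 293 and 286 CPM in GFP-positive libraries against 330.0 and 347 CPM in GFP-negative libraries, a log2 fold change of -0.22 ± 0.05 (adjusted p = 0.000462). The fraction with more krt8 thus differed between the injections, and the value that differed was that of GFP-negative cells after IL4. The call after PBS ended without PBS GFP-positive replicate 2 (log2 -0.12, adjusted p = 0.0847). krt18a.1 likewise was higher in GFP-positive cells after IL4, by 1.49 ± 0.07, with 117 and 112 CPM against 38.2 and 43.3 CPM in GFP-negative libraries.

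**Figure D3:**
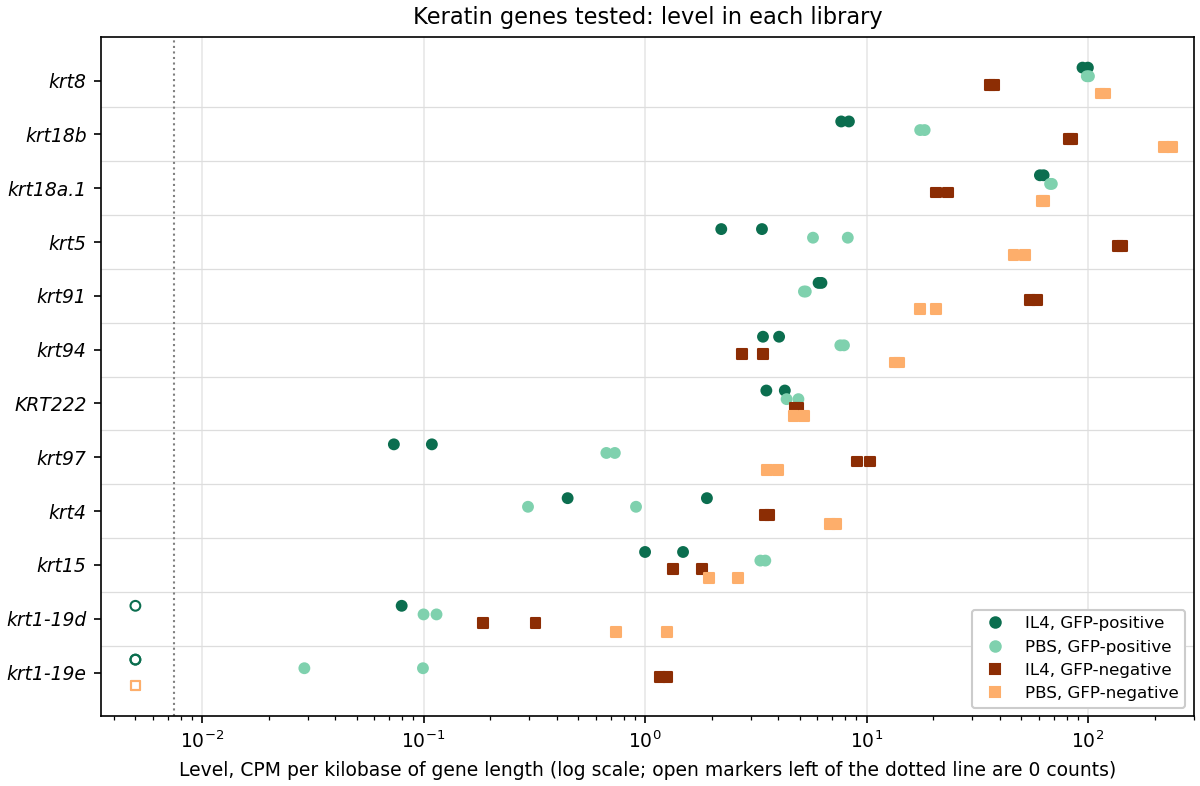
Each point is the level of a tested keratin in 1 library, in CPM per kilobase on a log axis, with symbols as in the plot of claudin levels. For krt8 and krt18a.1 the dark squares, which stand for IL4 GFP-negative cells, lie left of all other points, and for krt5, krt91 and krt97 they lie right of all others.

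Keratin levels in GFP-negative cells differed in both directions between IL4 and PBS. In this fraction 8 of 38 tested members rose after IL4, against 9.04% of all genes tested, and 15 fell, against 15.4% (24.5% in either direction). Among these, krt1-19e, krt1-19d and cldn3d had 10 or more counts in both libraries only of the group where they were highest. DESeq2 gave these 3 no adjusted p here. They are also counted among the members lower in GFP-positive cells after IL4. Of the keratins 4 rose and 6 fell, and of the claudins 4 rose and 9 fell. The median log2 fold change was -0.39 over the tested members and -0.02 over all genes. Without IL4 GFP-negative replicate 1 the count of members that fell was 8, and without PBS GFP-negative replicate 1 it was 9, and the calls that were lost are given further on.

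krt5 had 352 and 338 CPM in IL4 GFP-negative libraries, against 114 and 128 CPM in PBS GFP-negative libraries. The IL4 values were above both PBS values, and krt5 rose by 1.51 ± 0.10 on the log2 scale, a 2.85-fold change (adjusted p = 5.22e-10). krt91, on chromosome 19 at 5462077 to 5464284, had 103 and 95.8 CPM after IL4 against 30.5 and 36.1 CPM after PBS, and rose by 1.58 ± 0.10. krt97, on chromosome 22 at 11726358 to 11729424, had 13.5 and 15.5 CPM after IL4 against 5.34 and 5.99 CPM after PBS, and rose by 1.36 ± 0.21. All 3 had no overlap between IL4 and PBS, but krt91 shares 35.6% of its exon length with cyt1, another keratin-family gene, and krt97 shares 46.3% with si:rp71-1n18.1, so that the assignment of their reads is uncertain. krt1-19e had 47 and 42 counts after IL4 and 0 and 0 counts after PBS in GFP-negative cells. It was 32.4-fold higher after IL4 when the 0 counts of the PBS group were set to 3.

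krt8 fell in the same cells, with 109 and 105 CPM in IL4 GFP-negative libraries against 330.0 and 347 CPM in PBS GFP-negative libraries. The log2 fold change was -1.66 ± 0.05 (adjusted p = 6.98e-15). krt18a.1 fell with it, by -1.51 ± 0.07, and krt18b by -1.46 ± 0.06. All 3 tested genes of the simple-epithelial kind were thus lower by a like size, with no overlap between IL4 and PBS libraries. krt94, a keratin of the chromosome 11 group, had 5.17 and 6.46 CPM after IL4 against 25.4 and 26.5 CPM after PBS and fell by -2.16 ± 0.17. The ratio of krt5 to krt8, per length, was 3.81 and 3.78 in the IL4 GFP-negative libraries, against 0.405 and 0.434 in the PBS GFP-negative libraries. In GFP-positive libraries this ratio was 0.0221 and 0.0357 after IL4, against 0.0815 and 0.0581 after PBS.

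Of the claudins in GFP-negative cells, cldna and CLDN19 rose. cldna, on chromosome 15 at 2691994 to 2693936, had 50.5 and 51.3 CPM in IL4 GFP-negative libraries against 14.6 and 17.6 CPM in PBS GFP-negative libraries, and rose by 1.67 ± 0.16. CLDN19 had 321 and 328 CPM after IL4 against 205 and 206 CPM after PBS and rose by 0.66 ± 0.06. Both genes separated the injections in every library of this fraction. The falls of 4 claudins passed in every fit that left out 1 library. CLDN2, which forms pores for cations in mammals, had 1.57 and 1.71 CPM after IL4 against 9.87 and 9.51 CPM after PBS and fell by -2.56 ± 0.35. cldn33b fell by -2.35 ± 0.34, cldn7a by -0.92 ± 0.19 and cldnb by -0.69 ± 0.08. The fall of cldnb was the smallest of these, with 86.4 and 91.6 CPM after IL4 against 141 and 146 CPM after PBS.

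Further calls in GFP-negative cells did not hold in every fit. cldn3c had 97 and 101 counts in IL4 GFP-negative libraries against 30 and 44 in PBS GFP-negative libraries and rose by 1.54 ± 0.35, but not without PBS GFP-negative replicate 1 (1.26, adjusted p = 0.0627). The rise of cldne (1.71 ± 0.50) and the falls of krt4 (-0.99 ± 0.33), krt1-19d (-1.97 ± 0.63) and cldni (-0.57 ± 0.15) each ended without any of the 4 GFP-negative libraries. The adjusted p was then 0.0603 to 0.184 for cldne, 0.118 to 0.247 for krt4, 0.0572 to 0.296 for krt1-19d and 0.053 to 0.092 for cldni. The log2 fold changes in those fits were 1.48 to 1.91 for cldne, -1.04 to -0.94 for krt4, -2.41 to -1.54 for krt1-19d and -0.60 to -0.55 for cldni, all in the direction of the fit of 8 libraries. The call of krt4, a keratin of the outer epidermal layer in zebrafish, also ended in DESeq2 (adjusted p = 0.47) and with no filter on low counts (adjusted p = 0.362). cldn26 fell by -1.86 ± 0.54, and this ended without IL4 GFP-negative replicate 1 (-1.96, adjusted p = 0.0959) or 2 (-1.77, adjusted p = 0.129), without PBS GFP-negative replicate 1 (-1.64, adjusted p = 0.145) and in DESeq2 (adjusted p = 0.0567). The falls of CLDN11 on chromosome 2 (-1.38 ± 0.31) and cldn29 (-0.92 ± 0.29) ended without IL4 GFP-negative replicate 1 (-1.11 and -0.58) or PBS GFP-negative replicate 1 (-1.16 and -0.79).

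cldn3d, the neighbour of cldn3c, was found in GFP-negative libraries only, with 8 and 3 counts after IL4 against 16 and 60 after PBS, and 0 in all 4 GFP-positive libraries. It was 2.88-fold lower in GFP-positive than in GFP-negative cells after IL4 and 20.5-fold lower after PBS, where a count of 0 was set to 3 over the group. Without PBS GFP-negative replicate 1 or 2 the fitted log2 value after PBS was -8.69 or -6.73, against -8.05. Its fall after IL4 in GFP-negative cells, by -2.65 ± 0.76, rests on the PBS library with 60 counts, PBS GFP-negative replicate 2, without which it was -1.36 (adjusted p = 0.46). It also ended without IL4 GFP-negative replicate 1 (-3.47, adjusted p = 0.0579) or 2 (-2.14, adjusted p = 0.188), and without PBS GFP-negative replicate 1 it was -3.33. The call for the sort after IL4 ended without IL4 GFP-positive replicate 1 or 2 or IL4 GFP-negative replicate 1, with adjusted p of 0.101, 0.0992 and 0.137.

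In GFP-positive cells most members that passed for IL4 fell. Of 38 tested members 2 rose, against 13.9% of all genes tested, and 11 fell, against 14.8% (28.7% in either direction). The 2 that rose were the claudins cldn3c and cldn8.2, and those that fell were 6 claudins and 5 keratins. The median log2 fold change was -0.25 over the tested members and 0.01 over all genes. In DESeq2 and in a fit of the 4 GFP-positive libraries alone, cldn8.2 had no adjusted p and 1 member rose.

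cldn3c, on chromosome 21 at 25702690 to 25704806, belongs to the claudin-3 genes of fish. It had 71 and 58 counts in IL4 GFP-positive libraries, against 1 and 0 counts in PBS GFP-positive libraries. It was close to undetected in GFP-positive cells after PBS and near the level of GFP-negative cells after IL4 (3.88 and 3.20 CPM in GFP-positive, 4.11 and 4.44 CPM in GFP-negative libraries, log2 -0.27 ± 0.33, adjusted p = 0.485). The ratio of IL4 to PBS in GFP-positive cells was 145, with a 95% counting interval of 25.6 to 5780, and the gene passed (adjusted p = 3.02e-07). Without PBS GFP-positive replicate 1 or 2 the fitted log2 value was 9.27 or 6.05, against 6.88 with all libraries. For the sort after PBS it was 59.8-fold lower in GFP-positive cells, with a counting interval of 10.4 to 2395, and the fitted log2 value, -5.61, was -7.98 or -4.76 without PBS GFP-positive replicate 1 or 2.

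The keratins that fell in GFP-positive cells were krt97, krt15, krt5, krt18b and krt94. krt5 had 5.46 and 8.33 CPM in IL4 GFP-positive libraries against 20.3 and 14.2 CPM in PBS GFP-positive libraries, with no overlap, and fell by -1.33 ± 0.17. krt18b had 15.7 and 14.5 CPM against 34.5 and 33.0 CPM and fell by -1.16 ± 0.08. krt94 fell by -1.06 ± 0.17, and krt15, in mammals a type I keratin of basal epidermis, by -1.45 ± 0.32. krt97 had 3 and 2 counts after IL4 against 22 and 21 after PBS and fell by -2.88 ± 0.53. krt8, the most abundant keratin of these cells, had 289.6 and 274 CPM after IL4 against 293 and 286 CPM after PBS (log2 -0.04 ± 0.05, adjusted p = 0.603), a value that turned to 0.03 with plain library totals. krt18a.1 was at -0.14 ± 0.07 (adjusted p = 0.136), and it passed at -0.19 with RLE factors and in DESeq2 (adjusted p = 0.0362 and 0.0469).

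Of the claudins in GFP-positive cells, cldni had 0.546 and 0.828 CPM in IL4 GFP-positive libraries against 4.52 and 2.404 CPM in PBS GFP-positive libraries and fell by -2.34 ± 0.34. cldna had 0.601 and 1.49 CPM after IL4 against 3.66 and 2.77 CPM after PBS and fell by -1.63 ± 0.31, or by -2.48 without IL4 GFP-positive replicate 2. In both genes the IL4 and PBS values did not overlap. cldnd1a fell by -0.59 ± 0.15 and cldnb by -0.55 ± 0.14, and cldnb no longer passed in a fit of the 4 GFP-positive libraries alone (adjusted p = 0.103). cldn7a, the claudin most enriched in this fraction, was at -0.26 ± 0.11 (adjusted p = 0.073), and it passed with RLE factors, in DESeq2, with no filter and in the fit of 4 libraries, at -0.31 to -0.25. CLDN11 on chromosome 2 fell by -1.13 ± 0.41 and cldnj by -2.36 ± 0.78, and both calls ended without IL4 GFP-positive replicate 1 (-0.64 and -1.69) or either PBS GFP-negative library (adjusted p 0.0502 to 0.0592). The call of CLDN11 on chromosome 2 ended also without PBS GFP-positive replicate 2 (-0.82) and with library totals (adjusted p = 0.0586) and in the fit of 4 libraries (adjusted p = 0.0906), and that of cldnj without PBS GFP-positive replicate 1 (-1.95). Without IL4 GFP-positive replicate 2 these values were -2.07 for CLDN11 on chromosome 2 and -3.92 for cldnj.

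**Figure D4:**
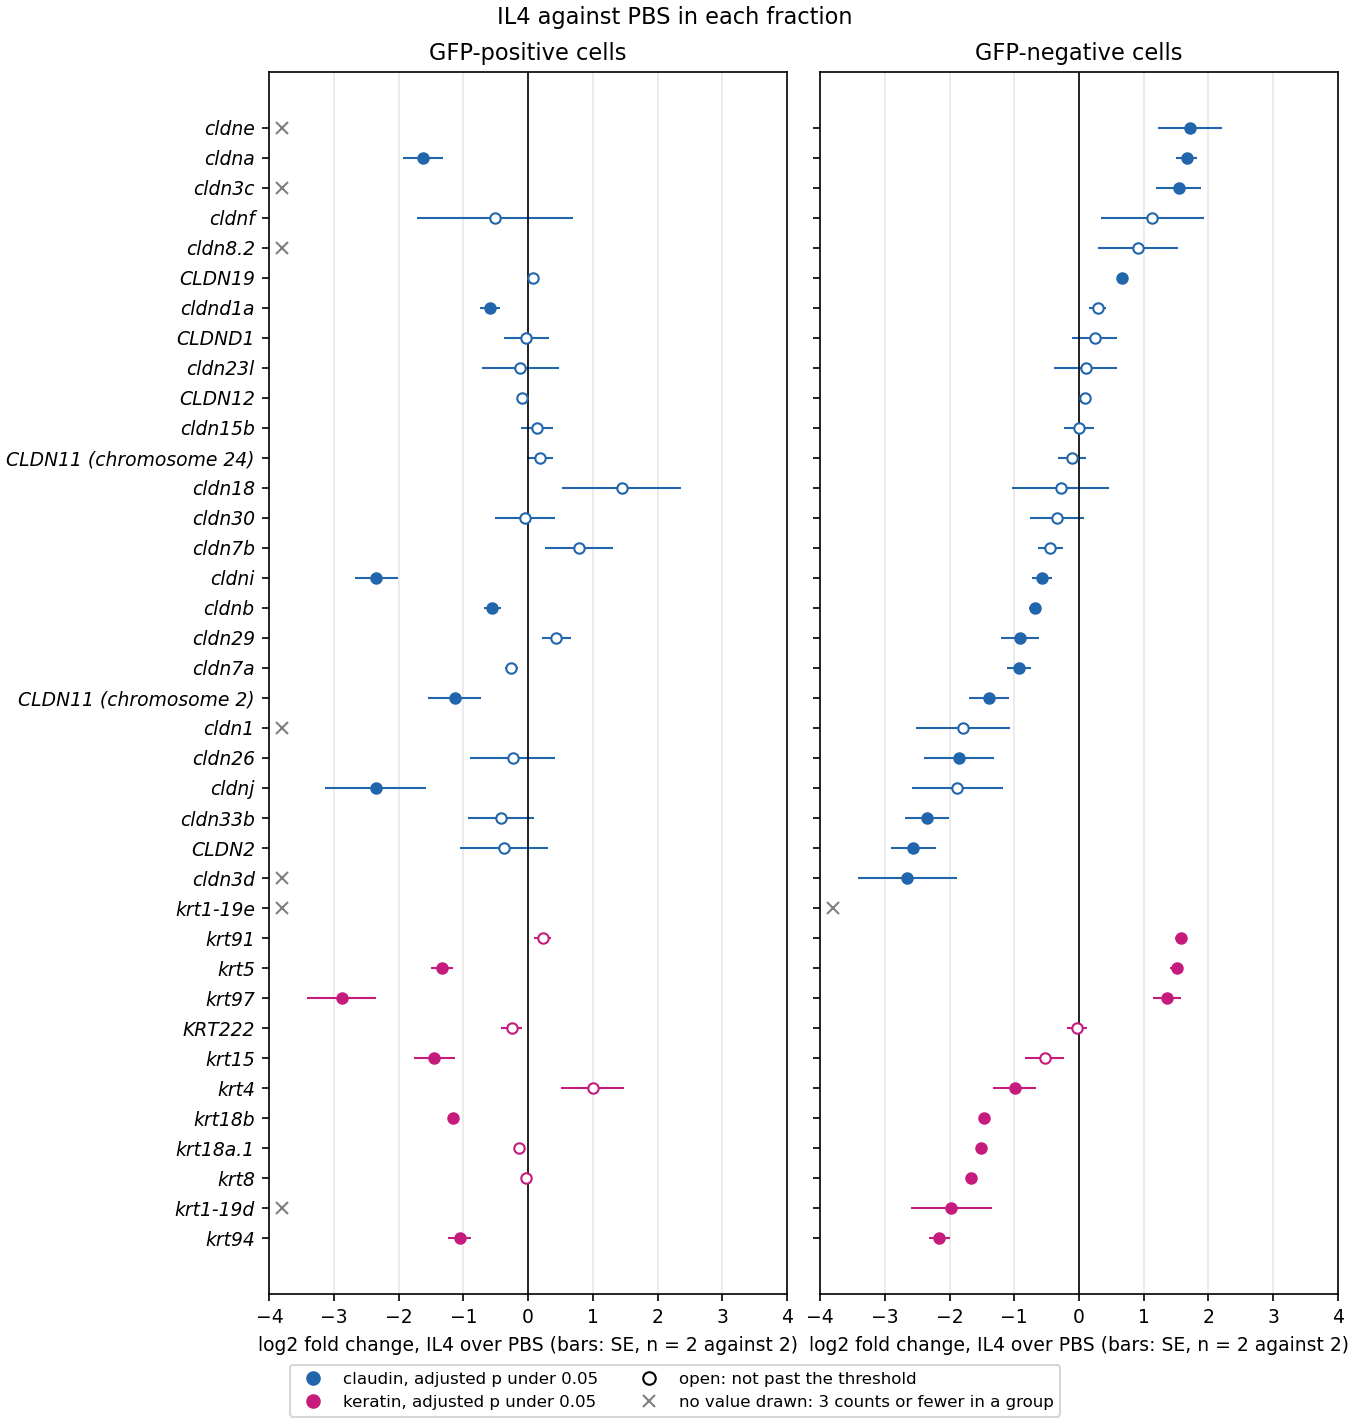
Points give the log2 fold change of IL4 over PBS for each tested member, in GFP-positive cells on the left and GFP-negative cells on the right, with bars for the SE (n = 2 against 2). Filled points passed an adjusted p under 0.05, open ones did not, and crosses at the left edge mark members with 3 counts or fewer in a group. krt5, krt97 and cldna lie left of 0 in GFP-positive and right of 0 in GFP-negative cells.

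Whether the change after IL4 differed between the fractions was tested as an interaction, the log2 change in GFP-positive cells minus that in GFP-negative cells. It was positive in 9 of 38 tested members, against 11.5% of all genes tested, and negative in 8, against 7.26% (18.7% in either direction). The genes that passed in opposite directions in the 2 fractions were krt5, krt97 and cldna. Their interactions were -2.84 ± 0.19 for krt5, -4.24 ± 0.56 for krt97 and -3.29 ± 0.34 for cldna (adjusted p = 2.17e-09, 1.68e-05 and 1.04e-06), and that of cldna was -4.16 without IL4 GFP-positive replicate 2. For krt8 and krt18a.1, which fell in GFP-negative cells and did not pass in GFP-positive cells, the interaction was 1.62 ± 0.07 and 1.37 ± 0.10. krt91 and CLDN19, which rose in GFP-negative cells and did not pass in GFP-positive cells, had interactions of -1.35 ± 0.17 and -0.59 ± 0.08.

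The interaction of krt94 was 1.098 ± 0.24, since its fall was larger in GFP-negative cells, while that of cldni was -1.77 ± 0.38, since its fall was larger in GFP-positive cells. cldnd1a had an interaction of -0.88 ± 0.20 (adjusted p = 0.00448). That of cldn3c was 5.34 ± 0.90, and it was 7.71 or 4.49 without PBS GFP-positive replicate 1 or 2. For krt18b (0.30 ± 0.10), cldn7a (0.66 ± 0.22), cldn29 (1.36 ± 0.37), cldn33b (1.93 ± 0.63) and krt4 (1.99 ± 0.58) the call ended in some fits without 1 library. For krt18b these were the fits without any library but PBS GFP-negative replicate 2 (adjusted p 0.0648 to 0.374), and for cldn33b those without any but IL4 GFP-positive replicate 1 and PBS GFP-positive replicate 2 (adjusted p 0.0523 to 0.233). For cldn7a they were the fits without IL4 GFP-positive replicate 2, either PBS GFP-positive library, IL4 GFP-negative replicate 1 or PBS GFP-negative replicate 1 (adjusted p 0.0566 to 0.322), and for cldn29 those without the same libraries except the PBS GFP-positive ones (adjusted p 0.0508 to 0.121). For krt4 they were the fits without replicate 1 of either GFP-positive group or without any GFP-negative library (adjusted p 0.0504 to 0.604), and without replicate 2 of the IL4 or PBS GFP-positive group its value was 2.61 or 2.89. The interactions of these 5 genes are thus the least firm, and those of krt18b and cldn7a ended also with RLE factors (adjusted p = 0.107 and 0.0623), and those of krt18b, cldn33b and krt4 in DESeq2 (adjusted p = 0.15, 0.0612 and 0.275). The count of positive interactions was 5 without PBS GFP-positive replicate 1 and 4 without IL4 GFP-negative replicate 1 or PBS GFP-negative replicate 1. cldnb, which fell in both fractions, had an interaction of 0.14 ± 0.16 (adjusted p = 0.617), and this turned to -0.12 without IL4 GFP-positive replicate 2. The interaction of CLDN2, 2.185, did not pass in the fit of 8 libraries. It passed in DESeq2 (adjusted p = 0.0469), with no filter (adjusted p = 0.0361) and without replicate 2 of the IL4 or PBS GFP-positive group.

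Neighbouring genes of a family had opposite calls in some groups and the same calls in others. Neighbours are here genes of 1 family with gaps of at most 100000 bases, whatever other genes lie between them. On chromosome 23, krt5, krt8 and krt18a.1 lie with the untested krt18a.2 in 182357 bases (10238226 to 10420582), and in GFP-negative cells krt5 rose after IL4 while krt8 and krt18a.1 fell. The gap from krt5 to krt8 was 72167 bases and that from krt8 to krt18a.1 was 93562 bases. On chromosome 19, krt1-19d, krt1-19e, krt92, krt17 and krt91 lie in 56118 bases (5408167 to 5464284). There krt91 and krt1-19e rose and krt1-19d fell after IL4 in GFP-negative cells, and the call of krt1-19d ended when any GFP-negative library was left out. On chromosome 21, cldn3c, cldn3d, cldnb, cldn29 and cldn30 lie with cldnd, which was under the count minimum, in 56674 bases (25702690 to 25759363), of which cldn29 was higher and cldnb lower in GFP-positive cells after both injections. Opposite calls among neighbours thus occurred in both families. On chromosome 6, krt4 and krt18b both fell after IL4 in GFP-negative cells (-0.99 and -1.46) and both were lower in GFP-positive cells after each injection. The fall of krt4 ended when any GFP-negative library was left out, in DESeq2 and with no filter on low counts. In GFP-positive cells krt18b fell after IL4 (-1.16) and krt4 did not pass (0.995 ± 0.48), though krt4 passed without replicate 2 of the IL4 or the PBS group. On chromosome 11, krt94 and krt15 both fell after IL4 in GFP-positive cells (-1.06 and -1.45), while in GFP-negative cells krt94 fell (-2.16) and krt15 did not pass (-0.53 ± 0.31). The 4 claudins cldnj, cldne, cldnf and cldna in 26088 bases of chromosome 15 (2667849 to 2693936) included 2 that rose after IL4 in GFP-negative cells, cldna and cldne, whereas cldnf (1.13 ± 0.80) and cldnj (-1.88 ± 0.70) did not pass there. cldnj did pass there, as lower, in the fit of the 4 GFP-negative libraries alone (-1.86, adjusted p = 0.0169) and without either IL4 GFP-positive library.

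**Figure D5:**
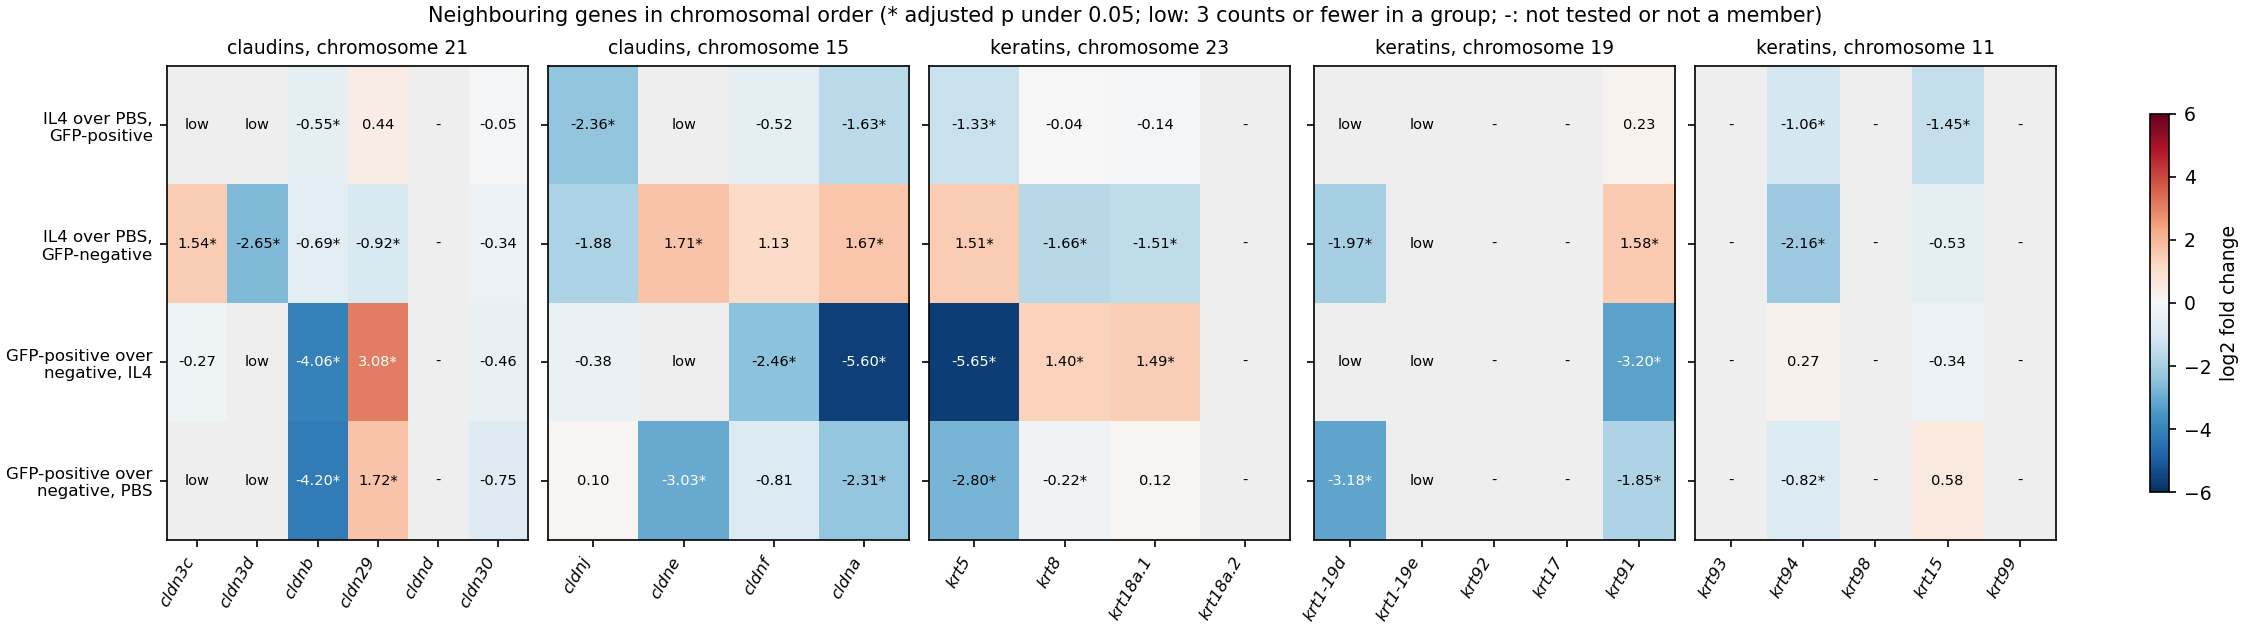
Each panel is a group of neighbouring family genes in chromosomal order, and each cell gives a log2 fold change as number and colour for the 4 comparisons named on the left. An asterisk marks an adjusted p under 0.05, as for krt5 (1.51), krt8 (-1.66) and krt18a.1 (-1.51) on chromosome 23 for IL4 over PBS in GFP-negative cells.

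Members with few counts complete the account of the sort. krt4 was lower in GFP-positive cells by -1.59 ± 0.39 after IL4 and -3.58 ± 0.41 after PBS. Its GFP-positive libraries differed among themselves (4.70 and 1.104 CPM after IL4, 0.731 and 2.25 CPM after PBS), and the value after IL4 was -2.97 or -0.90 without IL4 GFP-positive replicate 1 or 2, and did not pass in DESeq2 (adjusted p = 0.0764) or with no filter (adjusted p = 0.1). The value after PBS was -2.88 or -4.48 without PBS GFP-positive replicate 1 or 2. CLDN2 was lower by -2.42 ± 0.53 after IL4 and -4.60 ± 0.44 after PBS, with -3.81 or -1.72 without IL4 GFP-positive replicate 1 or 2, and -3.86 or -5.60 without PBS GFP-positive replicate 1 or 2. cldne, known from zebrafish skin, had 2 and 0 counts in IL4 GFP-positive libraries against 68 and 88 in IL4 GFP-negative libraries, and was 61.3-fold lower with a counting interval of 16.7 to 510. Its fitted log2 value after IL4, -5.80, was -9.22 or -4.87 without IL4 GFP-positive replicate 1 or 2, and its value after PBS, -3.03 ± 0.76, was -7.47 or -2.06 without PBS GFP-positive replicate 1 or 2. In these genes the values thus moved with the GFP-positive library left out.

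cldna was lower in GFP-positive cells by -5.60 ± 0.24 after IL4, or by -6.39 without IL4 GFP-positive replicate 2, and by -2.31 ± 0.20 after PBS, and cldni was lower by -5.36 ± 0.26 and -3.59 ± 0.19. cldnd1a was lower by -1.73 ± 0.15 and -0.85 ± 0.14. cldn33b was lower by -1.40 ± 0.46 after IL4, a call that ended when IL4 GFP-positive replicate 1 was left out (-1.098, adjusted p = 0.0889) or IL4 GFP-negative replicate 2 was (-1.15, adjusted p = 0.0908), and by -3.34 ± 0.38 after PBS. krt5 was lower by -5.65 ± 0.14 after IL4 and -2.80 ± 0.12 after PBS, krt91 by -3.20 ± 0.11 and -1.85 ± 0.12, and krt97 by -6.67 ± 0.38 and -2.43 ± 0.28. The krt97 value after IL4, like its interaction, rests on 3 and 2 counts in the IL4 GFP-positive libraries. For these 3 keratins the distance between the fractions was larger after IL4, as their interactions state.

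krt1-19e was split by the sort after IL4, with 0 and 0 counts in GFP-positive against 47 and 42 in GFP-negative libraries. That is 23.3-fold lower with 0 set to 3 counts over the group. After PBS it had 1 and 3 counts in GFP-positive against 0 and 0 in GFP-negative libraries. The call there, 1.65-fold higher with 0 set to 3 counts, rests on 4 counts, too few to give the size of a difference. It ended with replicate numbers as a block (adjusted p = 0.0624), in DESeq2 (adjusted p = 0.0589), with library totals (adjusted p = 0.0773) and with no filter (adjusted p = 0.0534). It also ended without PBS GFP-positive replicate 2, either GFP-negative IL4 library or either GFP-negative PBS library. cldn8.2 had 5 and 4 counts in IL4 GFP-positive libraries against 0 and 0 in PBS GFP-positive libraries, 3.38-fold higher with 0 set to 3 counts. That call ended without IL4 GFP-positive replicate 1 or either PBS GFP-positive library (adjusted p 0.0667 to 0.0936), and DESeq2 gave it no adjusted p. After PBS cldn8.2 was 5.12-fold lower in GFP-positive than in GFP-negative cells, again with 0 set to 3 counts. CLDN8 shares 16.3% of its exon length with cldn8.2 and was not tested, and 17 of its 22 counts lay in PBS GFP-positive replicate 1. krt1-c5, also not tested, had 16 counts in GFP-negative cells after IL4 and 0 after PBS, a level 5.83-fold higher with 0 set to 3 counts.

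The remaining calls between the fractions were those of cldnf and krt1-19d after IL4 and of krt1-19d, cldn26, cldn15b and krt94 after PBS. krt1-19d had 2 and 0 counts in IL4 GFP-positive against 6 and 10 in IL4 GFP-negative libraries, a level 6.29-fold lower with a counting interval of 1.48 to 56.4. Its fitted log2 value, -2.54, was -5.96 without IL4 GFP-positive replicate 1. This call ended without IL4 GFP-positive replicate 2, IL4 GFP-negative replicate 2 or either PBS GFP-negative library (adjusted p 0.0566 to 0.228) and in DESeq2 (adjusted p = 0.0826). After PBS krt1-19d was lower by -3.18 ± 0.73, and this passed in every fit without 1 library. cldnf, a claudin of zebrafish skin, was lower after IL4 by -2.46 ± 0.98, which ended without IL4 GFP-positive replicate 1, either IL4 GFP-negative library or PBS GFP-negative replicate 1 (adjusted p 0.0506 to 0.201) and in DESeq2 (adjusted p = 0.0954). Without IL4 GFP-positive replicate 2 it was -3.69. cldn26 was lower after PBS by -1.85 ± 0.55, which ended without PBS GFP-positive replicate 1 (-1.18, adjusted p = 0.0816) or PBS GFP-negative replicate 1 (-1.63, adjusted p = 0.06), and was -2.67 without PBS GFP-positive replicate 2. cldn15b was lower after PBS by -0.58 ± 0.24, which ended without PBS GFP-positive replicate 1 (-0.34), PBS GFP-negative replicate 2 (-0.36) or either IL4 GFP-negative library (adjusted p 0.0545 to 0.301), with RLE factors (adjusted p = 0.0521), in DESeq2 (adjusted p = 0.0865) and in the fit of 4 libraries (adjusted p = 0.0679). krt94 was lower after PBS by -0.82 ± 0.15.

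Of the 38 tested members 8 passed in neither comparison of the sort: cldn1, cldn18, CLDND1, cldn23l, cldnj, cldn30, krt15 and KRT222. Over all genes tested, 66.6% passed after IL4 and 71.7% after PBS. The share of all genes that passed in neither was not counted, so the 8 are a list only. KRT222 and CLDND1 passed in none of the 5 comparisons, with 10.5 to 15.6 CPM and 1.66 to 2.54 CPM in the 8 libraries, though KRT222 passed for the sort with library totals (-0.74 after IL4 and -0.58 after PBS). With library totals cldn23l also passed for the sort (-1.49 after IL4 and -1.32 after PBS). So did krt15 after IL4 (-0.78), and cldn1 (-1.65) and cldn30 (-1.24) after PBS. In the fit of the 4 PBS libraries alone krt15 passed as higher in GFP-positive cells (0.66). The 11 members with too few counts to test were the claudins cldn15la, CLDN23, cldn23.1, cldn10e, CLDN8 and CLDN10 on chromosome 6, and the keratins krt98, krt92, krt1-c5, krt18a.2 and krt17, with 10 to 56 summed counts each. Among them krt18a.2, the neighbour of krt18a.1, had 4 and 4 counts in IL4 GFP-positive libraries against 0 and 0 in PBS GFP-positive libraries. That is 3.002-fold higher after IL4 with 0 set to 3 counts, with no test. cldn23l and cldn18 share 64.3% and 31.2% of their exon length with genes on the opposite strand, so that their reads too are uncertain.

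Genes that work with claudins and keratins were counted in the same fit. Of 43 tested tight junction genes, 4 rose and 11 fell after IL4 in GFP-negative cells, and 10 rose and 2 fell in GFP-positive cells. Of all genes tested, 9.04% rose and 15.4% fell in GFP-negative cells, and 13.9% rose and 14.8% fell in GFP-positive cells. The occludin gene oclna, whose product spans the junction beside claudins, had 45.9 and 42.7 CPM in IL4 GFP-negative libraries against 26.1 and 23.3 CPM in PBS GFP-negative libraries and rose by 0.84 ± 0.18. The other occludin copy, oclnb, passed as higher after IL4 in GFP-positive cells, where both PBS libraries had 0 counts of it. Its interaction passed as positive, whereas that of oclna passed as negative. TJP1 and MAGI3 on chromosome 6, which encode scaffold proteins under the junction, rose in both fractions, by 0.60 ± 0.10 and 0.93 ± 0.22 in GFP-positive and by 0.28 ± 0.09 and 0.66 ± 0.14 in GFP-negative cells. The cingulin relative CGNL1 fell by -1.90 ± 0.21 and amotl2b by -1.30 ± 0.14 in GFP-negative cells, and in GFP-positive cells jam2a fell by -0.87 ± 0.13. The polarity gene pard3bb was higher in GFP-positive cells by 3.97 ± 0.15 after IL4 and 2.86 ± 0.14 after PBS, while oclna was lower there by -4.13 ± 0.25 and -2.78 ± 0.23. For the sort, 16 tight junction genes were higher and 14 lower after IL4, and 17 were higher and 20 lower after PBS, against 32.4% of all genes higher and 34.3% lower after IL4, and 32.6% higher and 39.1% lower after PBS.

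Of 22 tested genes listed for desmosomes, hemidesmosomes and the cornified envelope, which anchor keratin filaments, 3 rose and 10 fell after IL4 in GFP-negative cells (9.04% and 15.4% of all genes), and 5 rose and 2 fell in GFP-positive cells (13.9% and 14.8% of all genes). The list also holds KRTCAP2, which is not a part of these structures but is in these counts. The plakophilin gene pkp3a rose in both, by 1.45 ± 0.48 in GFP-positive and 0.82 ± 0.21 in GFP-negative cells, and it was lower in GFP-positive cells by -4.17 ± 0.28 after IL4 and -4.80 ± 0.34 after PBS. The plakophilin gene PKP3 ran opposite to it, higher in GFP-positive cells by 3.14 ± 0.13 and 2.86 ± 0.12. Desmoplakin, DSP on chromosome 2, fell by -1.29 ± 0.27 and the hemidesmosome integrin gene itga6b by -1.30 ± 0.25 in GFP-negative cells, in which krt8 fell and krt5 rose. The desmosomal gene PERP was at 191 and 182 CPM in IL4 GFP-positive libraries and 171 and 168 CPM in PBS GFP-positive libraries, and it was higher there than in GFP-negative cells by 2.96 ± 0.07 after IL4 and 1.98 ± 0.07 after PBS. Between the fractions, 11 genes of this list were higher and 6 lower in GFP-positive cells after IL4, whereas 8 were higher and 11 lower after PBS, beside 32.4% and 34.3% of all genes after IL4 and 32.6% and 39.1% after PBS.

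Of 19 tested genes of other intermediate filaments, 4 rose and 2 fell after IL4 in GFP-negative cells (9.04% and 15.4% of all genes), and 3 rose and 3 fell in GFP-positive cells (13.9% and 14.8% of all genes). The stem cell filament gene nes rose in GFP-negative cells by 1.08 ± 0.10, and VIM on chromosome 2 fell by -1.24 ± 0.11 there and by -0.38 ± 0.08 in GFP-positive cells. The lamin gene LMNA rose in GFP-positive cells by 0.76 ± 0.10. The glial filament gene GFAP was higher in GFP-positive cells by 5.78 ± 0.14 after IL4 and 6.19 ± 0.14 after PBS, and the neurofilament gene nefma was lower by -3.63 ± 0.16 and -2.77 ± 0.15.

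Markers of cell types were counted in the same fit. Over all genes, 9.04% rose and 15.4% fell after IL4 in GFP-negative cells, and 13.9% rose and 14.8% fell in GFP-positive cells. For the sort, 32.4% of all genes were higher and 34.3% lower in GFP-positive cells after IL4. After PBS these shares were 32.6% and 39.1%. Of 20 genes matched to surface epithelium 14 were tested, and in GFP-positive against GFP-negative cells 1 was higher and 11 were lower after IL4, and 1 was higher and 12 were lower after PBS. Their summed level, which leaves out the matched member krt1-19e, was 36.4 and 34.6 CPM in IL4 GFP-positive and 28.8 and 31.3 CPM in PBS GFP-positive libraries, and 153 and 153 CPM in IL4 GFP-negative and 199 and 193 CPM in PBS GFP-negative libraries. In each GFP-positive library 4 or 5 of the 20 genes were at 0, among them grhl3 in 4 of 4 libraries, whereas the GFP-negative libraries lacked at most ovol1b. After IL4 in GFP-negative cells, 2 of the 14 tested markers rose (GRHL1 and ELF3) and 2 fell (epcam and ANXA1), beside 9.04% and 15.4% of all genes. In GFP-positive cells after IL4, 2 of the 14 rose (ELF3 and ESRP2), near the 13.9% of all genes that rose, and 0 fell. ELF3 had 2.67 and 2.04 CPM after IL4 against 0.0457 and 0.0523 CPM after PBS, and those PBS levels stand for very few counts. All 12 endothelial markers fell after IL4 in GFP-negative cells, with a summed level of 87.3 and 89.0 CPM after IL4 against 268 and 256 CPM after PBS, none at 0. Of 11 tested markers of microglia and macrophages 9 fell there, with a summed level of 2357 and 2310 CPM after IL4 against 7597 and 7844 CPM after PBS. In GFP-positive cells 8 of the 11 fell, with 283 and 277 CPM after IL4 against 774 and 761 CPM after PBS. Of 11 neuron markers, 7 rose and 0 fell after IL4 in GFP-negative cells, with a summed level of 2241 and 2204 CPM per kilobase after IL4 against 1647 and 1637 after PBS. In GFP-positive cells 8 of them rose and 0 fell, with 391 and 393 CPM per kilobase after IL4 against 274.5 and 259 after PBS. Of 10 oligodendrocyte markers, 5 rose and 2 fell in GFP-negative cells, with 20030 and 19850 CPM after IL4 against 15400 and 15190 CPM after PBS, and in GFP-positive cells 1 rose and 7 fell. Of the 14 radial glia markers, 12 fell after IL4 in GFP-positive cells, with 40340 and 40430 CPM after IL4 against 53770 and 52630 CPM after PBS. Of 10 tested ependymal and choroid plexus markers, 5 were higher and 2 lower in GFP-positive cells after each injection. Their summed level was 652 and 625 CPM in IL4 GFP-positive and 873 and 878 CPM in PBS GFP-positive libraries, and 94.1 and 107 CPM in IL4 GFP-negative and 148 and 151 CPM in PBS GFP-negative libraries. Of 12 mural and meningeal markers, 1 rose and 5 fell after IL4 in GFP-negative cells and 3 rose and 0 fell in GFP-positive cells. Their summed level in GFP-negative cells was nevertheless higher after IL4, with 720 and 706 CPM against 573 and 611 CPM after PBS. In GFP-positive cells it was 589.5 and 575.5 CPM after IL4 against 434 and 437 CPM after PBS. The 4 tested erythrocyte markers were all lower in GFP-positive cells after each injection, and of 10 tested lymphocyte and neutrophil markers 9 were lower after IL4 and 8 after PBS. The epithelial genes given here were named after their values were seen, and the part of any of these cells in the changes of claudins and keratins was not tested.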

How the data were processed

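Per the labels, RNA from 8 libraries was sequenced. The authors deposited raw counts (reads per gene, whole, not normalized), and the submitters' processing notes name featureCounts and the build GRCz10 (danRer10). The sources used here name no aligner, strand setting or rule for reads with several alignments. The series' design text names other injections and another time, and the library labels were followed. Of the count columns 0 lacked a sample, gene lengths equalled merged exons, and 25925 genes had a symbol.

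Counts were fitted with edgeR 4.0.16 in R 4.3.3: TMM factors, filterByExpr (minimum 10), 4 group means, robust quasi-likelihood, 4 residual degrees of freedom, two-sided F tests, adjustment over 20508 genes (10880 removed), common dispersion 0.00816. SE is the log2 fold change divided by the square root of F. The steps were tested on simulated data. Alternatives were RLE factors, library totals, no filter, DESeq2 1.42.0, the replicate block, the 4 libraries compared, and leaving out each library, in which case the single library left took its spread from the remaining groups. Replicate numbers state no pairing, so the reported fits had no block.

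Named were up to 10 passing members per direction and comparison by size, the 5 most abundant of each family, members at 0 in a group, and the members nearest the minimum. For partner genes the rule gave up to 3 passing genes per list, direction and comparison, and only some of these are given here. Those left out include PPL, col17a1a and evpla, oclnb is given by direction only, and no rule was fixed for that choice. Members, lists and rules were chosen with earlier results of these data known. Counting intervals (95%) cover counting error only. Where a group had 0 counts, the ratio was taken with 3 counts over that group. It allows for no error in the higher count, so the true ratio may lie below it. Sequences were not used here.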

Additional observations from a re-analysis of the deposited data

Results flagged for a closer look

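The 17 values in this part are interaction values, the log2 change after IL4 in GFP-positive cells minus that in GFP-negative cells, and each was taken up because the test of the difference itself passed (edgeR's quasi-likelihood test, adjusted p under 0.05). Negative values were found for krt1-19e (-12.57), krt97 (-4.24), cldna (-3.29), krt5 (-2.84), cldni (-1.77), krt91 (-1.35), cldnd1a (-0.88) and CLDN19 (-0.59). The fitted value of krt1-19e is no measure of size, because 2 groups had 0 counts. It was -13.27 without PBS GFP-positive replicate 1 and -11.66 without PBS GFP-positive replicate 2. Positive values were found for krt18b (0.30), cldn7a (0.66), krt94 (1.1), cldn29 (1.36), krt18a.1 (1.37), krt8 (1.62), cldn33b (1.93), krt4 (1.99) and cldn3c (5.34). Of the positive ones, those of krt94, krt18a.1, krt8 and cldn3c passed in every fit that left out 1 library.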

How the results depend on the processing

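Members that rose after IL4 in GFP-positive cells numbered 2, and 1 in DESeq2 and in the fit of 4 libraries, where cldn8.2 got no adjusted p. Higher members for the sort after PBS numbered 5, and 3 with library totals. Across fits without 1 library, the counts higher and lower were 1 to 3 and 9 to 12 for IL4 in GFP-positive cells, 6 to 8 and 8 to 16 for IL4 in GFP-negative cells, 6 to 6 and 16 to 19 for the sort after IL4, 4 to 7 and 22 to 23 for the sort after PBS, and 4 to 9 and 8 to 9 for the interaction. With library totals the summed claudin level was 265 CPM in IL4 GFP-positive, 273 in PBS GFP-positive, 746 in IL4 GFP-negative and 658 in PBS GFP-negative cells, and that of keratins was 396, 426, 945 and 1294 CPM in the same order of groups. That scaling moved the median of all genes by -0.44 for the sort after IL4 and -0.48 after PBS.

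Changes of sign were looked for only where the naming rule picked a member for a comparison, so other members with small values may have turned too. Values that turned sign among those picked were krt8 for IL4 in GFP-positive cells (0.033) and krt18a.1 for the sort after PBS (-0.368), both with library totals. Across fits without 1 library, CLDN19 for IL4 in GFP-positive cells (-0.066 to 0.09) and the interaction of cldnb (-0.121 to 0.227) turned too. None of these 4 had passed, and the cause was not tested. With the replicate number as a block 4 members were higher for the sort after PBS, since krt1-19e was lost, and no other call changed. Between groups, same-numbered libraries deviated with correlations of -0.0106 to 0.00662. The labels state no pairing, and whether same-numbered libraries came from the same fish was not tested. Low counts limit cldn1, cldn8.2, cldn18, cldnf, cldn3d, cldnj, krt1-19e and krt1-19d most, the tested members with 52 to 94 counts over the 8 libraries. The calls of krt4 for the sort and the interaction, with 1458 counts, moved with its unequal GFP-positive libraries (86 and 20 counts after IL4, 16 and 43 after PBS).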
